A study of Oryza sativa with 2 samples.

Results

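Transcript levels of 9 nuclear genes of photosynthetic electron transport were described in rice seedlings. They encode the 3 extrinsic proteins of the oxygen-evolving complex (PsbO, PsbP and PsbQ), the photosystem II protein PsbR, the Rieske subunit PetC, plastocyanin, ferredoxin 1 and 2 leaf-type ferredoxin-NADP reductases (FNR). The genes were chosen by name and locus identifier and not by a threshold on their values, but with earlier results of these data known. All 9 were found among the 38511 loci listed in both libraries. Polyadenylated RNA came from whole wild-type seedlings of Nipponbare, the japonica cultivar that serves as the reference for the species, at 3 weeks of age. The plants had grown in Yoshida nutrient solution in short days (10 h of light at 800 μmol m-2 s-1 and 14 h of dark). The labels number the libraries 1 and 2 within a single group, and they give no treatment or other genotype. Nothing says that different plants went into each, so the spread between the libraries may be technical.

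Electron transport begins at photosystem II, where the oxygen-evolving complex on the lumen side of the thylakoid membrane takes electrons from water. Plastoquinol carries them to the cytochrome b6f complex, and plastocyanin, a small copper protein, carries them on through the lumen to photosystem I. On the stromal side ferredoxin receives them, and FNR uses them to reduce NADP. The proteins described here are encoded in the nucleus and imported into the chloroplast, and they work in green tissue, which in a whole seedling is mixed with roots and other non-green parts. The files list identifiers with no gene names. The names are those given with the identifiers when the genes were chosen, and for 5 of the 9 the RefSeq table holds an entry of the same name on the chromosome that the identifier names (PsbQ, PetC, plastocyanin, ferredoxin 1 and the FNR of chromosome 6). The table does not link these entries to the identifiers.

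The 9 genes stood among the most abundant transcripts of the seedlings, with PsbR as the exception. The authors' values are FPKM (fragments per kilobase of transcript, scaled to sequencing depth), so levels of different genes can be compared per length. Summed over the 9 genes, the level was 12121 FPKM in library 1 and 11073 FPKM in library 2 (11597 ± 741, SD, n = 2). That sum was 1.81% of all FPKM in library 1 and 1.70% in library 2, held by 0.0234% of the loci. On the mean of both libraries, 8 of the 9 were among the 385 loci that make up the highest 1% (1.00% of all loci by construction), and the count was also 8 in each library alone. PsbR was outside in both libraries. In whole seedlings, a smaller share of green cells and less transcript per green cell cannot be told apart.

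**Figure D1:**
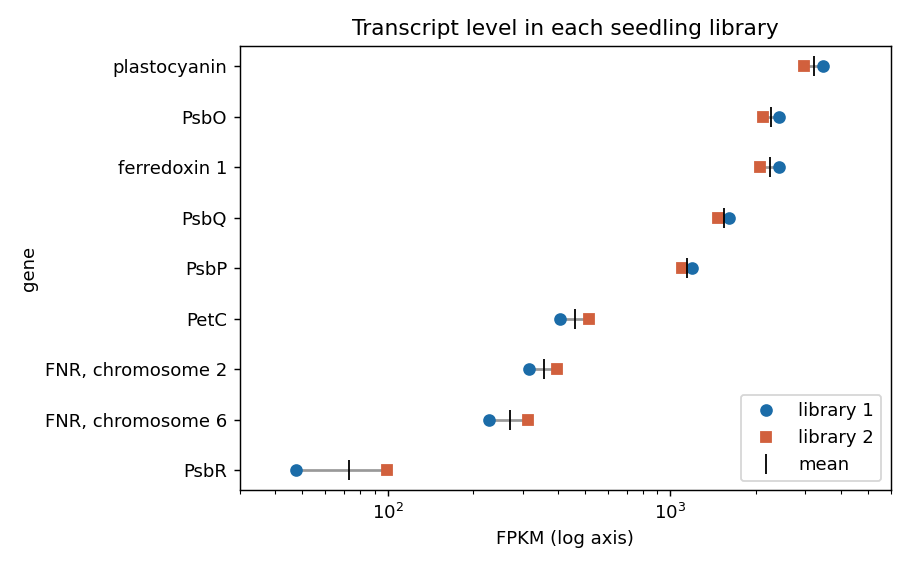
FPKM (log axis) of the 9 genes in library 1 (circles) and library 2 (squares), with the mean as a tick and a line joining the libraries. Plastocyanin is highest and PsbR lowest, and the 5 genes above 1000 FPKM are lower in library 2 while the 4 below are higher in it.

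The genes of the 3 extrinsic proteins of the oxygen-evolving complex had transcript levels of the same order, with PsbO highest. Protein was not measured, so no ratio given here is a ratio of proteins. PsbO (LOC_Os01g31690, chromosome 1), which stabilises the manganese cluster that splits water, was at 2414 FPKM in library 1 and 2131 FPKM in library 2 (2272 ± 200, SD, n = 2). It ranked 23rd of all loci on the mean and 5th on its chromosome. PsbQ (LOC_Os07g36080, chromosome 7), which with PsbP helps to retain calcium and chloride at the cluster, was at 1614 and 1474 FPKM (1544 ± 98.7, SD, n = 2). PsbP (LOC_Os07g04840, chromosome 7) was at 1194 and 1098 FPKM (1146 ± 67.4, SD, n = 2). The order PsbO, PsbQ, PsbP held in both libraries, and the ranges of the 3 genes did not overlap.

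The proportions among these 3 genes hardly moved from library to library. This was not particular to them, since the ratios of plastocyanin and of PsbO to ferredoxin 1, given below, were about as steady. Per PsbO transcript there were 0.495 PsbP in library 1 and 0.516 in library 2, and 0.669 and 0.692 PsbQ. PsbP stood at 0.740 of PsbQ in library 1 and 0.745 in library 2. Such a ratio is taken within a library and does not depend on how the libraries were scaled to each other. The 3 genes together reached sums of 5221 and 4703 FPKM in libraries 1 and 2, which was 43.1% and 42.5% of the 9-gene sum.

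PsbR departed from the other genes both in level and in agreement between libraries. In Arabidopsis the PsbR protein is needed for stable binding of PsbP to photosystem II. PsbR (LOC_Os07g05360, chromosome 7) was at 47.4 FPKM in library 1 and 99.2 FPKM in library 2 (73.3 ± 36.6, SD, n = 2). It ranked 2396th of all loci in library 1 and 988th in library 2. Its highest library lay below the lowest library of every other gene of the set. PsbO exceeded it 50.9-fold in library 1 and 21.5-fold in library 2, so the direction of the gap was shared but its size rested on which library was used. These values are for LOC_Os07g05360 alone. Whether other loci encode PsbR was not examined, and how reads shared with such loci would be assigned is not given in the sources used here.

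The transcript of PetC, the iron-sulphur protein through which cytochrome b6f takes electrons from plastoquinol, lay well below those of the mobile carriers. PetC (LOC_Os07g37030, chromosome 7) was at 406 FPKM in library 1 and 515 FPKM in library 2 (461 ± 76.9, SD, n = 2). Plastocyanin (LOC_Os06g01210, chromosome 6), the next carrier, was at 3474 and 2978 FPKM (3226 ± 351, SD, n = 2). It was the highest of the 9 genes in both libraries, ranked 15th of all loci on the mean and second of the 3177 loci on its chromosome. Plastocyanin exceeded PetC 8.55-fold in library 1 and 5.78-fold in library 2.

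On the acceptor side of photosystem I, the transcript of ferredoxin 1 was far above those of the reductases that use ferredoxin. Ferredoxin 1 (LOC_Os08g01380, chromosome 8) was at 2427 FPKM in library 1 and 2067 FPKM in library 2 (2247 ± 254, SD, n = 2), second of the 2725 loci on its chromosome. The FNR of chromosome 2 (LOC_Os02g01340) was at 317 and 398 FPKM (357 ± 57.2, SD, n = 2), and that of chromosome 6 (LOC_Os06g01850) at 228 and 313 FPKM (271 ± 59.6, SD, n = 2). The FNR of chromosome 2 was the higher in both libraries, by 1.39-fold and 1.27-fold. How reads that match more than 1 FNR gene were assigned is not given in the sources used here, so the division between them is less certain than their sum. That sum was 545 FPKM in library 1 and 710 FPKM in library 2, and ferredoxin 1 exceeded it 4.45-fold and 2.91-fold.

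The transcripts of the soluble carriers at the opposite ends of photosystem I kept a nearly fixed proportion. Plastocyanin stood at 1.43 times ferredoxin 1 in library 1 and 1.44 times in library 2. PsbO and ferredoxin 1 were not separated at all, since ferredoxin 1 was the higher in library 1 and PsbO in library 2. The ratio of PsbO to ferredoxin 1 was 0.994 in library 1 and 1.03 in library 2. Among the genes above 1000 FPKM, a steady ratio was thus not particular to the soluble carriers.

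Ordered by mean level, the genes ran from plastocyanin through PsbO, ferredoxin 1, PsbQ, PsbP, PetC, the FNR of chromosome 2 and the FNR of chromosome 6 to PsbR. The highest mean was 44.0-fold above the lowest, a span of 73.3-fold in library 1 and 30.03-fold in library 2. It was 11.9-fold when PsbR was left out. Of the 8 neighbouring pairs in this order, 7 had ranges that did not overlap between the genes, and PsbO with ferredoxin 1 was the exception. The order was set by the same values, and no share over other loci was computed beside this count. The largest steps between neighbours were 3.69-fold, from the FNR of chromosome 6 to PsbR, and 2.49-fold, from PsbP to PetC. The gap was narrow for 2 of the 7 pairs, at 8.55 FPKM between PetC and the FNR of chromosome 2, and 4.21 FPKM between the FNR genes. These 2 pairs overlapped when each library was rescaled to a common sum, which left 5 pairs apart, although both libraries still gave the same order. With 2 values against 2, taken as unpaired, an exact permutation test cannot go below p = 0.33 (two-sided), so no pair was tested. Both genes of a pair were measured in the same libraries, and the comparison of ranges does not use that pairing.

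Within this set, the 5 genes with the highest levels were lower in library 2 and the other 4 were higher. The count lower in library 2 was near the share over loci with a mean of at least 1 FPKM, a share that moved with the filter. The difference between the libraries was taken as the log2 ratio of library 2 over library 1 on the scale of log2(FPKM + 1). The 9 genes had a median of -0.12, against 0.02 over the 19187 loci with a mean of at least 1 FPKM, which all 9 genes passed. Of the 9, 5 were lower in library 2, where 47.1% of all those loci were. The 5 were plastocyanin, PsbO, ferredoxin 1, PsbQ and PsbP, with log2 ratios from -0.23 for ferredoxin 1 to -0.12 for PsbP. The 4 higher in library 2 were PetC (0.34), the FNR of chromosome 2 (0.33), the FNR of chromosome 6 (0.45) and PsbR (1.05).

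The division fell at the step between PsbP and PetC. The sum of the genes at 1000 FPKM or more was 11122 FPKM in library 1 against 9748 FPKM in library 2, and that of the genes under 1000 FPKM was 999 against 1325 FPKM. The share of the latter in the 9-gene sum was 8.24% in library 1 and 12.0% in library 2. Level classes were set beside them after the values were seen. Among the 60 loci whose mean reached 1000 FPKM, 5 of which are these genes, 76.7% were lower in library 2, with a median log2 ratio of -0.12. The 5 genes at this level thus moved with most loci of their class. Among the 310 loci at 200 to 600 FPKM, 44.2% were higher in library 2 and the median was -0.08. The 3 genes in that class (PetC and both FNR) were all higher in library 2, unlike most of the class. Their log2 ratios were smaller than the SD of the class, 0.62.

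PsbR was the 1 gene of the 9 that differed 2-fold or more between the libraries, where 6.75% of loci with a mean of at least 1 FPKM did so and 3.26% were 2-fold higher in library 2. The linear ratio was 2.09. In the class of 30 to 200 FPKM, which holds PsbR, 5.32% of 3493 loci were 2-fold apart. With 1 library on each side the difference cannot be tested, and leaving out either library sets the level of PsbR at 47.4 or 99.2 FPKM. Between the libraries, the genes at 1000 FPKM or more differed by at most 1.17-fold, PetC by 1.27-fold and the FNR genes by 1.26-fold and 1.37-fold.

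**Figure D2:**
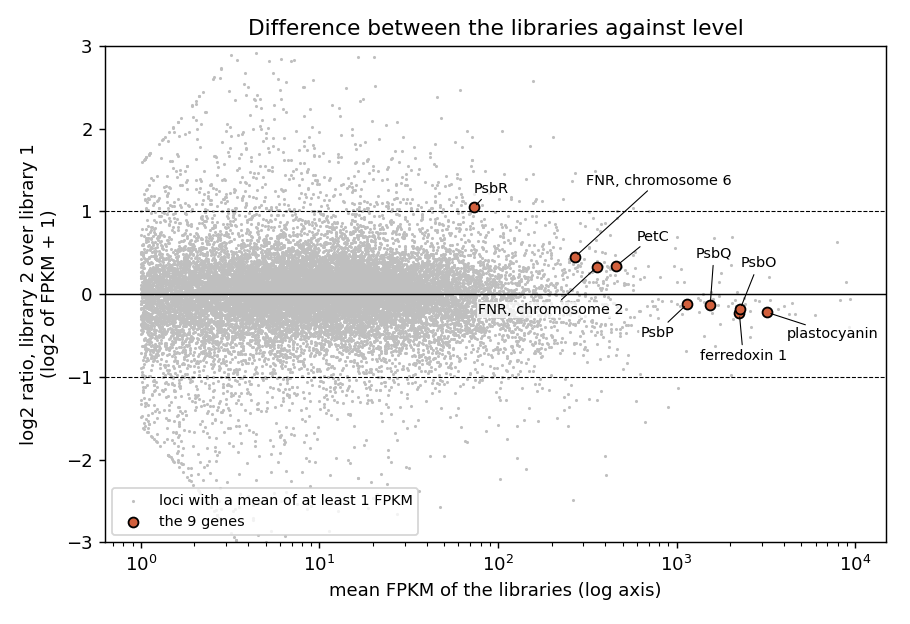
Log2 ratio of library 2 over library 1 against mean FPKM (log axis) for loci with a mean of at least 1 FPKM (grey) and the 9 genes (labelled). Dashed lines mark 2-fold differences, and 85 loci beyond ±3 are not drawn; PsbR lies just above the upper line, PetC and both FNR between 0 and that line, and the 5 highest genes just below 0.

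Each gene stood above its surroundings on the chromosome, as did most loci of similar level. The identifier holds the chromosome number and a locus number that increases along it; these gave chromosome and order here, with no genome to compare them with. The set is spread over 5 chromosomes, with 4 genes on chromosome 7 and 2 on chromosome 6. All 9 genes were higher than the 5 listed loci on each side of them, where 17.3% of loci with a mean of at least 1 FPKM were. Of loci whose mean reached 200 FPKM, as that of 8 of the genes did, 91.6% were. In the class of 30 to 200 FPKM, which holds PsbR, 52.5% were. Of the 90 nearby loci, 30 were listed at 0 in both libraries, 39 reached a mean of 1 FPKM and 2 reached 100 FPKM.

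Ferredoxin 1 stood out most, at 94.0 times its highest nearby locus in library 1 and 74.8 times in library 2, followed by PsbO at 41.1 and 34.2 times. PsbP was at 29.5 and 24.5 times. Plastocyanin was at 32.8 and 18.4 times LOC_Os06g01250, itself at 106 and 162 FPKM in libraries 1 and 2. PsbQ was at 7.999 and 6.87 times its highest nearby locus, LOC_Os07g36140 (208 ± 9.05 FPKM, SD, n = 2). The FNR of chromosome 6 was at 4.98 and 9.54 times. PsbR had the smallest margin in both libraries, at 1.78 times in library 1 and 3.53 times in library 2. These nearby loci, chosen for being the highest, have no name in the sources used here.

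Around PsbR, few loci had levels at which the libraries could be compared. Of the 10 loci nearest to it, 2 reached a mean of 1 FPKM. LOC_Os07g05390 went from 3.24 FPKM in library 1 to 4.73 FPKM in library 2 (1.46-fold), and LOC_Os07g05400 from 26.6 to 28.1 FPKM (1.06-fold). Both were higher in library 2, as PsbR was, by less than its 2.09-fold. The other 8 were under 1 FPKM on the mean.

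**Figure D3:**
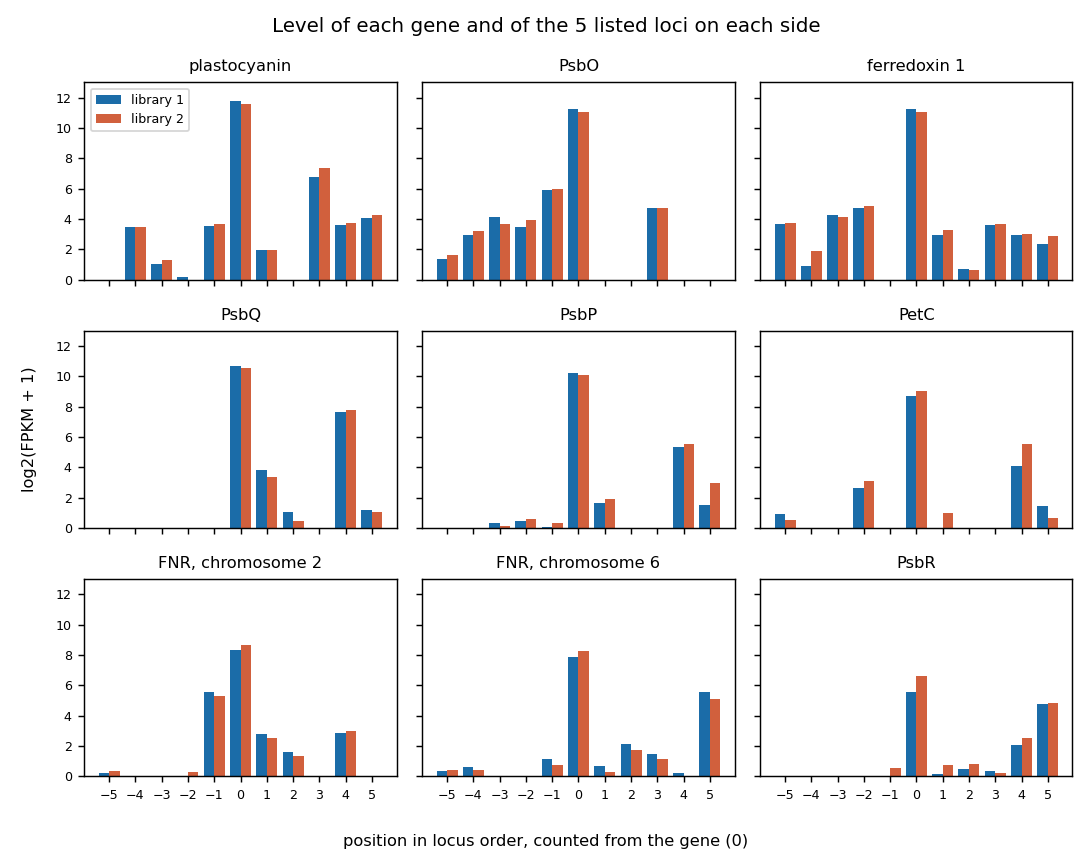
Level on the scale of log2(FPKM + 1) of each gene (position 0) and of the 5 listed loci on each side in locus order, in library 1 (left bars) and library 2 (right bars). The bar at 0 is the tallest in all 9 panels, and 30 of the 90 nearby loci have no bar because they are listed at 0.

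The loci nearest in level over both libraries were looked for around the highest and the lowest gene. Nearness was the Euclidean distance of log2(FPKM + 1) over the 2 libraries, which with so few samples says little beyond a similar level. For plastocyanin it was LOC_Os11g06720, at 3560 FPKM in library 1 and 3005 FPKM in library 2 (distance 0.037). For PsbR it was LOC_Os09g27750, at 49.1 and 95.1 FPKM (distance 0.078). Neither has a name in the sources used here.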

How the data were processed

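For every locus the authors deposited an FPKM value in each library, as named in the file headers. The submitters' processing notes name Cufflinks. Not given in the sources used here are its version, the aligner, genome build, annotation, strand setting and treatment of isoforms. Of the 9 genes, PsbP and the FNR of chromosome 2 are written with more than 6 digits, as are 35.5% of loci with a mean of at least 1 FPKM. The sum of all values was 670155 FPKM in library 1 against 651935 FPKM in library 2. The number of fragments is unknown, so counting error could not be computed. An indirect estimate, from the commonest ratio of 940 loci with means of 0.001 to 0.5 FPKM, gave library 2 a depth 1.08 times that of library 1. Only loci above 0 in both libraries, with a log2 ratio (no pseudocount) under 0.5 in size, were used. The estimate assumes that such loci hold equal fragment counts in both libraries, which was not tested. No locus above 0 had equal values in both libraries.

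Levels are the mean ± SD over 2 libraries. Log2 ratios used a pseudocount of 1 FPKM. With 1 group, no test between groups exists. The smallest possible permutation p for 2 against 2 values taken as unpaired, 0.33, could not pass a threshold. Computations used Python 3.11.15, pandas 2.3.3 and numpy 2.4.6. The log2 ratios, median-ratio scaling and depth estimate were run on simulated data, and the other computations were not. The members, lists and named-gene rule (all 9 members, the locus nearest in level to the highest and lowest, and nearby loci exceeding a member, of which there were 0) were chosen with earlier results of these data known. The nearby loci named in the text, which are the highest beside a gene or lie beside PsbR, fall outside that rule. The RefSeq table (assembly ASM3414082v1) paired 1 listed identifier with a gene, and 0 of 19 symbols of other pathway genes and 0 of 8 symbols of root and leaf markers. Neither list was therefore analysed, and the whole-plant label was not checked with markers. No sequences of the genes were used here. Alternatives were other scalings, pseudocounts, filters and widths, and leaving out a library.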

Additional observations from a re-analysis of the deposited data

How the results depend on the processing

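Rescaling each library to a common sum of 1000000 raised the summed level of the 9 genes from 11597 to 17536 FPKM, since the deposited values sum to less, and left 5 rather than 7 neighbouring pairs apart. Median-ratio scaling gave 11600 FPKM and 7 pairs. The count of genes lower in library 2 stayed at 5, and that of genes 2-fold apart at 1, under both scalings and a pseudocount of 0.1. The shares of loci set beside these counts moved with the filter on the mean. The share lower in library 2 was 33.42% with no filter, 45.82% from 5 FPKM and 60.04% from 100 FPKM. The share 2-fold apart was 3.85%, 5.41% and 7.25% at the same settings. How near the counts lie to such a share therefore depends on the filter. The median log2 ratio ranged from -0.14 (median-ratio scaling) to -0.08 (common sum), and was -0.13 without PsbR, an alternative chosen after seeing the data. Ranked among loci with a mean of at least 1 FPKM, 6 of the 9 genes were in the highest 1%, against 8 among all loci. All 9 genes exceeded their nearby loci at 3 and at up to 10 loci on each side (17 loci in total for plastocyanin at the wider setting). The share of all loci that do so was not computed at these widths. Leaving out a library gave sums of 11073 and 12121 FPKM, and PsbO over PsbR ratios of 21.5 and 50.9. No ratio between libraries exists with 1 library left out. No paired comparison between groups was possible because both libraries belong to the same group. As the depth is unknown, little can be read from nearby loci under 1 FPKM.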
